A study of Mus musculus with 16 samples.

Results

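The 10 genes described here, Dazl, Ddx4, Sycp1, Sycp3, Mael, Tex101, Taf7l, Tdrd1, Mov10l1 and Asz1, are known for their expression in germ cells, and were chosen by name from the 20972 genes that had a probe on the array. Each of the 10 matched 1 probe, printed once per array. None of these genes was called different between any of the 4 groups of mouse embryonic stem (ES) cells compared, in a test that called 0% of all genes. Their transcripts were nevertheless not uniformly absent: for 7 of the 10 the signal was clearly over background on 4 or more of the 16 arrays, and Dazl, Ddx4 and Taf7l did so on all 16. Of all genes with a probe, 60.9% passed the same mark and 26.9% were detected on every array, so the 10 are called germline genes here and not repressed genes.

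E14 ES cells, grown in serum with LIF, the cytokine that keeps them undifferentiated, were lipofected with plasmids, sorted for eGFP at 24 h and harvested at 48 h. The control group, EGFP, received a fluorescent protein alone. In the other 3 groups a TALE, a designed DNA-binding protein, was directed at Ptn, the gene for the growth factor pleiotrophin: Ptn_VP64 joined it to VP64, a synthetic transcription activator, Ptn_DEL to DEL, known as an acidic chromatin-opening peptide, and what Ptn_Delta carries is not given in the labels. Each group had 4 arrays, 2 biological and 2 technical replicates. The labels do not say which arrays repeat the same sample, so p-values from unaveraged arrays are too small. All groups share the cell line, the lipofection and the sorting.

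In most cells outside the germ line, genes of this kind are kept silent by DNA methylation of their CG-rich promoters and by repressor complexes, among them a variant Polycomb complex in which MGA and MAX bind the E-box CACGTG and E2F6 binds an E2F site. ES cells are known to loosen this control in part. The products serve germ cells at several stages: RNA-binding proteins that control translation (Dazl, Ddx4), the synaptonemal complex that joins homologous chromosomes in meiosis (Sycp1, Sycp3), the piRNA pathway that silences transposons (Mael, Tdrd1, Mov10l1, Asz1, with Ddx4), a germ cell relative of a general transcription factor subunit (Taf7l) and a germ cell surface protein (Tex101).

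The promoters of these genes carry the E-box often. In RefSeq windows of GRCm38.p6, from 250 bases before to 50 after each transcript start, CACGTG, which reads the same on both strands, was found for 7 of the 10 genes: Ddx4, Sycp1, Sycp3, Mael, Taf7l, Tdrd1 and Mov10l1. Of the 16613 genes with both a probe and a window, 9.35% held it in at least 1 window, and among the 6795 of them with a window of at least 20 CG dinucleotides 13.5% did. The core GCGGGA, on either strand, was found for 4 of the 10 (Ddx4, Sycp1, Sycp3 and Mael) and for 29.7% of genes with a probe. Among genes with a window of at least 20 CG dinucleotides, 51.9% held it, above the members' 40%. All 4 held the E-box too; 3.76% of genes with a probe held both, and 7.37% of those with at least 20 CG dinucleotides. No match of one motif overlapped a match of the other in the windows printed here. A match is a description of the letters and shows no binding. Because the genes were chosen by name, these shares carry no test.

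Of the other germline lists, 5 of 15 piRNA and nuage genes, 5 of 21 meiosis genes and 3 of 21 further germ cell genes held CACGTG. For ES cell markers it was 1 of 9. CG dinucleotides in the members' windows ranged from 15 for Sycp3 to 38 for Ddx4, apart from the last Tdrd1 start, whose window held 3 and lacked both motifs. Dazl, with 28 CG dinucleotides and a signal on every array, held neither motif.

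The windows of Dazl, Ddx4, Sycp3 and Mael are printed first, as 4 genes well detected in these cells. Those of Tdrd1 (the first of 3 starts) and Asz1 follow because neither gene was well above background on any array; these 2 were added after the values had been seen. Capitals mark CACGTG and GCGGGA or its reverse complement TCCCGC, and each sequence runs 5′ to 3′ on the gene's strand. On GRCm38.p6 the windows are chr17:50293571-50293870 (minus strand) for Dazl, chr13:112652261-112652560 (minus) for Ddx4, chr10:88459337-88459636 (plus) for Sycp3, chr1:166238695-166238994 (minus) for Mael, chr19:56825959-56826258 (plus) for Tdrd1 and chr6:18109012-18109311 (minus) for Asz1.
Dazl: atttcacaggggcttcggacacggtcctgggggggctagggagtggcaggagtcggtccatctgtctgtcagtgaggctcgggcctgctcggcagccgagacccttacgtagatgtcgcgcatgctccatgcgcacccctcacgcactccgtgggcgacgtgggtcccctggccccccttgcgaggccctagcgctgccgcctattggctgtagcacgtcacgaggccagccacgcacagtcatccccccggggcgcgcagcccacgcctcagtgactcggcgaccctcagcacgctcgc
Ddx4: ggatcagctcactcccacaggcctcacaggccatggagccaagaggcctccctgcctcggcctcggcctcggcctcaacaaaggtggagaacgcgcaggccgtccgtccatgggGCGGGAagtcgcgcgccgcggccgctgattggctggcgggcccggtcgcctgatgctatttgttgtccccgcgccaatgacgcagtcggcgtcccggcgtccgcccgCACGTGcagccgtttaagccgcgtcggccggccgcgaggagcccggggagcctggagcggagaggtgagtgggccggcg
Sycp3: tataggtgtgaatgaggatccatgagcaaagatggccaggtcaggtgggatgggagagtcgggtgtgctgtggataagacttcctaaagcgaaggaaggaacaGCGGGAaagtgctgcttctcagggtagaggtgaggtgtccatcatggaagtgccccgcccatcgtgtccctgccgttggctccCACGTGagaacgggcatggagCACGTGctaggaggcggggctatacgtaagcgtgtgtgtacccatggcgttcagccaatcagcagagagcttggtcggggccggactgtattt
Mael: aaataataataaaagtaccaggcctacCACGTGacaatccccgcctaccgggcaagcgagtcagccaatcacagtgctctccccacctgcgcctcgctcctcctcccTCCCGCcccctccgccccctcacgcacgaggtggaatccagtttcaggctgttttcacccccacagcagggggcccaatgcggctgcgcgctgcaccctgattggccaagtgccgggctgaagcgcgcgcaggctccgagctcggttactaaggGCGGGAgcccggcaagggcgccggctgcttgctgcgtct
Tdrd1: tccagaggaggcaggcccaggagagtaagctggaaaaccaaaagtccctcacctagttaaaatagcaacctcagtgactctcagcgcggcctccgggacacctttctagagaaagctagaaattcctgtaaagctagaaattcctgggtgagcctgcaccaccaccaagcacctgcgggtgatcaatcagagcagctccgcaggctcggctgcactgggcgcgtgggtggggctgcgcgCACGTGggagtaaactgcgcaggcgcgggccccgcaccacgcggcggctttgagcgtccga
Asz1: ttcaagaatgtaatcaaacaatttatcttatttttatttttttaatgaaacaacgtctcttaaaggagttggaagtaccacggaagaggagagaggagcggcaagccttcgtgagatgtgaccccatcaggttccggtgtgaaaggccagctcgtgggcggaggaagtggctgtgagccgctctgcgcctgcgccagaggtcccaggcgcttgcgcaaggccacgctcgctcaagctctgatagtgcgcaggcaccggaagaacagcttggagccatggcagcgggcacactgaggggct
Both Sycp3 E-boxes lie in the stretch before the transcript start, and that of Mael near the far end of its window. Over all 10 genes, the E-box was found for 6 of the 7 that were well above background on at least 4 arrays and for 1 of the other 3, Tdrd1. The matching shares of all detected and undetected genes were not computed, and a link between motif and detection was not tested.

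Levels are given as the log2 of the processed signal less that of the 75th percentile of spots on the same array, so a level of 0 is a signal equal to that percentile. They compare a gene between arrays, not 1 gene with another. Spots that the scanner software marked as non-uniform or as outliers were left out, 11 of the 160 spots of these genes.

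The 2 RNA-binding genes were detected on all 16 arrays. Dazl measured 0.70, -0.84 and -0.76 on EGFP arrays 1 to 3, with array 4 marked, and 0.17, 0.13, 0.22 and 0.73 on Ptn_VP64 arrays 1 to 4. On Ptn_DEL arrays it measured 0.17, -1.03, 0.51 and 0.11, and on Ptn_Delta arrays 0.86, -0.05, -0.27 and 0.13. The 4 groups overlapped throughout, and the lowest value was Ptn_DEL array 2. Ddx4, an RNA helicase that is a classic germ cell marker, averaged 1.75 ± 0.51 in EGFP (SD, n = 3), 1.74 ± 0.96 in Ptn_VP64 (SD, n = 3), 1.5 ± 1.08 in Ptn_DEL (SD, n = 4) and 1.82 ± 0.22 in Ptn_Delta (SD, n = 3). Its lowest unmarked arrays were Ptn_DEL array 2 and Ptn_VP64 array 2.

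The 2 synaptonemal genes differed in how often they were seen. Sycp3, of the lateral elements, was well above background on 15 arrays. It measured 1.75, 4.05 and 3.15 on EGFP arrays 2 to 4 (array 1 marked), 2.10, 0.86 and 3.62 on Ptn_VP64 arrays 1 to 3 (array 4 marked) and 4.22, 1.06, 3.87 and 2.77 on the Ptn_DEL arrays. On the Ptn_Delta arrays it measured -0.42, -3.38, 3.32 and 2.56, the second of these not well above background. Ptn_Delta arrays 1 and 2 were thus the lowest of all, while arrays 3 and 4 lay within the range of EGFP.

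Sycp1, of the transverse filaments, was well above background on 11 arrays, 1 of 4 in EGFP, 3 in Ptn_VP64, 3 in Ptn_DEL and 4 in Ptn_Delta. Its EGFP values were -3.37, -1.34, -3.14 and -2.25 and its Ptn_VP64 values -1.82, -2.46, -1.45 and -1.73. The unmarked Ptn_DEL arrays 1, 3 and 4 gave -4.69, -1.54 and -2.10, and the Ptn_Delta arrays -1.0, 1.62, -1.92 and -1.81. The widest values, on Ptn_DEL array 1 and Ptn_Delta array 2, both came from slide 1. The count of 3 in Ptn_DEL includes array 2, whose spot was marked. Arrays also differed in the levels they detected. The 5th percentile of spots well above background was -0.84 and -0.90 on EGFP arrays 1 and 2, and -2.87 to -1.50 on the other slide 1 arrays. Sycp1 at -1.34 on EGFP array 2 thus did not count, while -1.92 on Ptn_Delta array 3 did. The counts therefore do not compare groups.

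Among the piRNA genes, Mael, a nuage protein, was well above background on 15 arrays and Mov10l1, the helicase that hands piRNA precursors on to processing, on 13. Mael measured 1.53, 3.19 and 2.61 on EGFP arrays 2 to 4, 2.45 and 3.35 on Ptn_VP64 arrays 1 and 3, and 3.70, 3.49, 3.34 and 3.12 on the Ptn_DEL arrays. On Ptn_Delta arrays 2, 3 and 4 it measured -1.48, 3.11 and 3.09, the first not well above background, and the other arrays were marked. The low value again came from slide 1. Mov10l1 averaged -1.90 ± 0.52 in EGFP, -1.86 ± 0.84 in Ptn_VP64, -1.47 ± 0.35 in Ptn_DEL and -1.43 ± 0.63 in Ptn_Delta (SD, n = 4 each). It was well above background on 2, 3, 4 and 4 arrays of these groups. A Mov10l1 level of -1.27 on EGFP array 1 did not count, while -1.91 on Ptn_DEL array 2 did, so these counts do not compare groups either. The tudor scaffold gene Tdrd1 and Asz1, a mitochondrial anchor of the pathway, were not well above background on any array, which sets no order or fold between groups.

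Taf7l was detected on every array with no spot marked, at 0.28 ± 0.70 in EGFP, -0.04 ± 0.44 in Ptn_VP64, 0.11 ± 1.23 in Ptn_DEL and 0.94 ± 0.73 in Ptn_Delta (SD, n = 4 each). Its 4 groups overlapped, and the lowest value, -1.65, was on Ptn_DEL array 1. Tex101 was well above background on 3 arrays only, EGFP array 4, Ptn_VP64 array 4 and Ptn_Delta array 1, with values of -2.48, -2.57 and -2.23, so it was described but not tested.

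**Figure D1:**
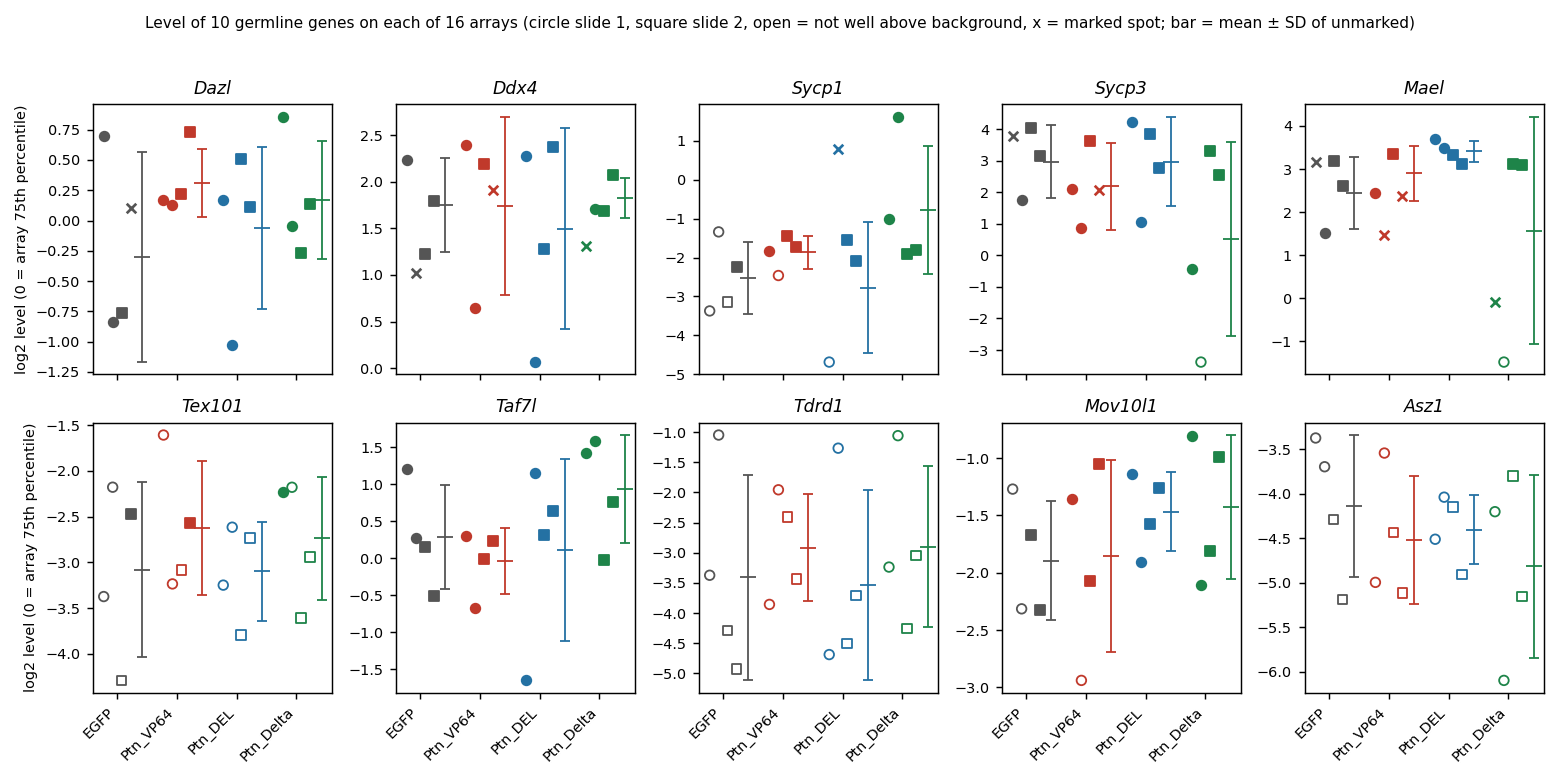
Level of each germline gene on each array (y axis, log2 relative to the array's 75th percentile), by group (x axis); circles are slide 1, squares slide 2, open symbols are not well above background, crosses are marked spots left out of the mean ± SD shown as bars. Sycp3 and Mael are low on the slide 1 arrays of Ptn_Delta, down to -3.38 and -1.48, and Tdrd1 and Asz1 have open symbols only.

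The detection of the 10 genes was near that of the array as a whole. Of all 20972 genes, 60.9% passed this detection mark, 4 arrays or more, against 7 of 10 here (70%). The shares were 12 of 17 other piRNA and nuage genes, 21 of 25 other meiosis genes and 12 of 22 further germ cell genes, and no test was made between these lists. By the rule for naming genes from their levels, Tex19.1, Tdrd12 and Ddx25 stood for the piRNA list, well above background on 16, 16 and 15 arrays. Syce2, Syce1 and Stag3 stood for the meiosis list, on 16, 15 and 16, and Rpl10l, Tuba3a and Cyct for the further germ cell genes, on 16, 13 and 14. Not every gene of these pathways was seen: Piwil1, Tdrd6, Tdrd9, Tdrkh, Sycp2 and Spo11, the nuclease that starts meiotic recombination, were above background on 0 arrays.

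Primordial germ cell genes and repressors of germline genes were widely detected. All 11 primordial germ cell genes passed on at least 4 arrays, with Dppa5a, Ifitm3 and Lin28a named by level and seen on all 16. Lin28a is a gene of ES cells too, so detection of this list does not show a germ cell state. Of 26 repressors of germline genes 24 passed, with the de novo methylation cofactor Dnmt3l, Hdac1 and the methyltransferase Dnmt3b named by level. Those that did not pass were Ring1 and Zbtb16. The TET enzymes, which oxidise methylated cytosine, were all 3 detected, Tet1 and Tet2 on 16 arrays and Tet3 on 5. ES cell markers were seen on all 16 arrays for 10 of 10 genes.

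**Figure D2:**
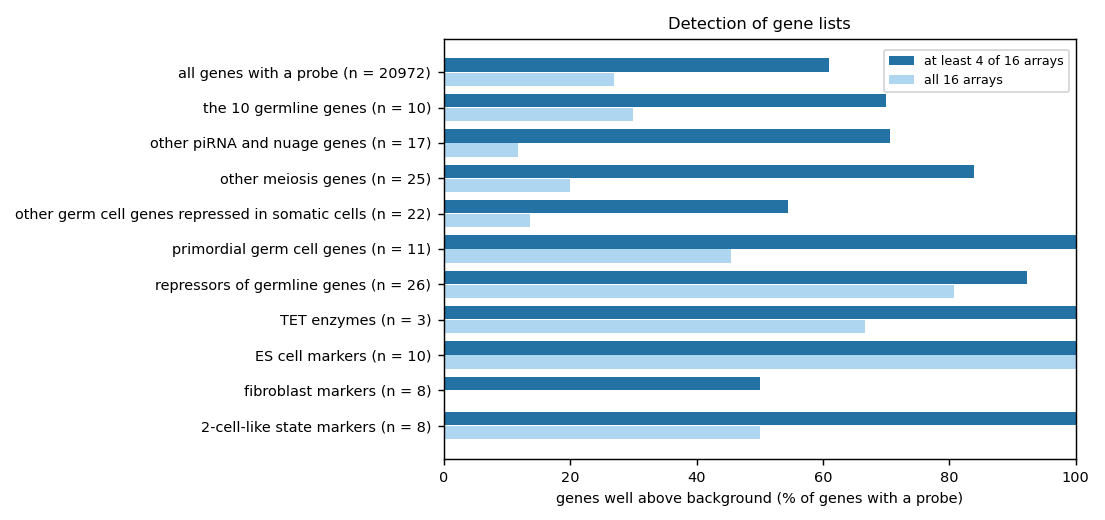
Share of genes of each list (rows, with the number that had a probe) that were well above background on at least 4 arrays (dark bars) and on all 16 arrays (light bars), in percent. The 10 germline genes stand at 70% and 30%, all genes at 60.9% and 26.9%, and the ES cell markers at 100% on both counts.

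The labels state no question about germline genes. The arrays of each group were averaged to 2 samples in each of the 3 ways they can pair, each was fitted with limma over all genes, and the largest p was kept; a difference printed is that of the pairing with that p, so it can depart from the difference of group means where a spot was marked. A gene was called at a Benjamini-Hochberg adjusted p under 0.05 over all genes. As a check of the labels, Ptn itself averaged -1.21 on the 4 EGFP arrays and measured 3.67 on the single unmarked Ptn_VP64 array, a difference of 4.87 whose adjusted p of 0.678 assumes that this array varies like those of the other groups. The correction for local shifts described further on needed at least 2 arrays in each group. The Ptn probe of these values had too few, so another Ptn probe stood for the gene on corrected levels. On that other probe, 3 Ptn_VP64 arrays averaged 2.96 and 2 EGFP arrays -1.24. The limma difference was 4.11 ± 1.23 (SE, adjusted p = 0.457) by the planned test and 4.37 ± 0.84 (adjusted p = 0.0298) with arrays unaveraged. The planned test called 0% of 12746 genes for Ptn_VP64 against EGFP, with 3.88% at an unadjusted p under 0.05, so a count of 0 among germline genes is no sign that they did not change.

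In Ptn_VP64 against EGFP, 0 of the 7 germline genes tested were called and 0 had an unadjusted p under 0.05. Of the 7, 4 lay above EGFP and 3 below, with a median of 0.04 against 0.07 for all genes. Sycp1 stood 0.66 ± 1.12 above EGFP (SE), Dazl 0.36 ± 0.69 and Mael 0.27 ± 1.04, and Taf7l stood at -0.32 ± 0.68. The 95% intervals were wide, from -1.17 to 1.90 for Dazl and from -1.98 to 3.30 for Sycp1. Ddx4 (-0.02), Mov10l1 (0.04) and Sycp3 (-0.12) had estimates close to 0 but intervals of similar width, from -1.49 to 1.45 for Ddx4.

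In Ptn_DEL against EGFP the test called 0% of all genes, with 2.68% at an unadjusted p under 0.05, and 0 of the 7 germline genes by either measure. Mael had the largest estimate at 0.78 ± 0.85 (95% interval -1.19 to 2.76), followed by Mov10l1 at 0.43 ± 0.70. The remaining 5 lay between -0.17 (Taf7l) and 0.06 (Sycp1). No group of arrays separated from EGFP for any of the 7 genes, where 5.37% of all genes with at least 3 unmarked arrays a group stood above EGFP without overlap and 0.305% below. The same held against EGFP for the 6 genes that could be compared in Ptn_VP64 (6.27% of all genes above, 1.92% below) and the 7 in Ptn_Delta (5.87% above, 0.238% below).

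Of the 3 comparisons with EGFP, Ptn_Delta gave the widest range of estimates, again with 0% of 12736 genes called and 3.99% at an unadjusted p under 0.05. Sycp3 stood at -2.15 ± 0.98 (95% interval -4.48 to 0.18, unadjusted p = 0.0653, adjusted p = 0.98) and Sycp1 at 1.75 ± 1.12 (interval -0.89 to 4.39). Taf7l stood at 0.65 ± 0.68, Mov10l1 at 0.47 ± 0.70 and Mael at -0.53 ± 0.79. Within slide 1 the Sycp3 difference was -3.65 and within slide 2 it was -0.65; for Sycp1 these were 2.67 and 0.83, and for Mael -3.01 and 0.20.

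Between the TALE groups, Ptn_VP64 against Ptn_Delta and against Ptn_DEL gave 0 called germline genes of 7 each, beside 0% of all genes called and 2.91% and 1.86% at an unadjusted p under 0.05. The estimates ran from -1.09 (Sycp1) to 1.34 (Sycp3) in the first and from -0.51 (Mael) to 0.60 (Sycp1) in the second. Of 6 germline genes comparable in each, 0 stood apart without overlap, where 2.05% of all genes stood above and 5.18% below Ptn_Delta, and 1.71% above and 4.72% below Ptn_DEL. Ptn_DEL against Ptn_Delta had the one germline gene with an unadjusted p under 0.05 by limma, Sycp3 at 2.46 ± 1.05 (95% interval 0.08 to 4.83, adjusted p = 1); for all genes that share was 0.643%, and 0% were called. Sycp1 stood at -2.48 ± 1.12 (unadjusted p = 0.0623) and Mael at 1.45 ± 0.85. Mael was also the one germline gene without overlap, its 4 Ptn_DEL arrays (lowest 3.12) above its 3 unmarked Ptn_Delta arrays (highest 3.11), where 0.734% of all genes stood higher without overlap and 0.525% lower.

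These differences lay on slide 1. Ptn_DEL minus Ptn_Delta was 4.54 for Sycp3, 5.07 for Mael and -5.0 for Sycp1 within slide 1, and 0.37, 0.13 and 0.05 within slide 2. Slide 1 carried replicates 1 and 2 of every group and slide 2 replicates 3 and 4, and the SD over unmarked arrays was 2.36 on slide 1 against 0.55 on slide 2 for Sycp3, 2.10 against 0.25 for Mael and 1.99 against 0.54 for Sycp1. Dazl spread more evenly, with 0.66 and 0.49. Each group also held the same column on both slides, so the effects of construct and of array position cannot be told apart.

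The neighbourhood of the spots moved with these values. The local shift is the median departure of the surrounding spots (a window of 21 by 21) from their own 16-array medians, and is given here relative to the array's own median shift. Around Sycp3 it was -4.68 on Ptn_Delta array 1 and -3.98 on array 2, and around Mael -4.44 and -4.59. Around Sycp1 it was -4.99 on Ptn_DEL array 1, -3.96 on EGFP array 1 and 3.19 on Ptn_Delta array 2. On slide 2 no spot of the 10 genes was in such a patch, defined as a shift beyond 1 log2 unit; on slide 1, 21 spots were, 19 of them dimmed.

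**Figure D3:**
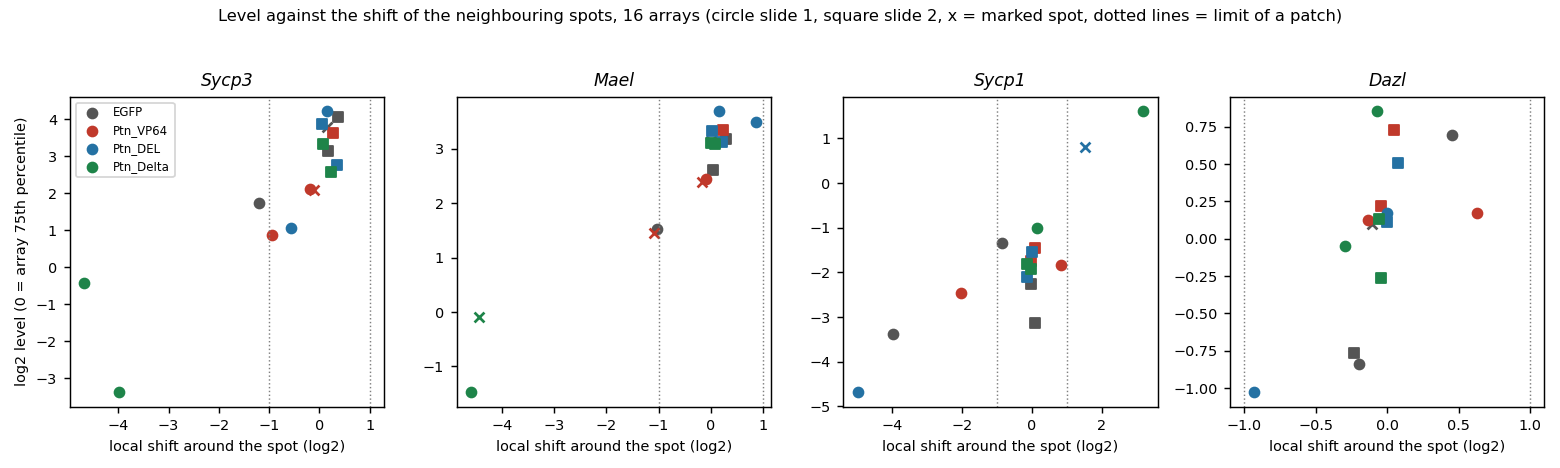
Level of Sycp3, Mael, Sycp1 and Dazl (y axis, log2) against the local shift of the spots around each (x axis, log2 units, array median subtracted) on 16 arrays; colours are groups, circles slide 1, squares slide 2, crosses marked spots, and dotted lines the limits of 1 log2 unit. The lowest Sycp3 and Mael values, -3.38 and -1.48 on Ptn_Delta array 2, sit at shifts of -3.98 and -4.59, and all Dazl spots lie between the lines.

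For the corrected levels the local shift was subtracted in full, array median included (-0.40 on EGFP array 2 to 0.90 on Ptn_Delta array 1), and spots in patches were left out. The group means of Sycp3, Mael and Sycp1 then lay closer together, and those of Ddx4 and Mov10l1 further apart. Of the 3 Sycp1 spots averaged for EGFP, only 1 was well above background. The Sycp1 spot on EGFP array 2, which was not, moved from -1.34 to -0.10 by the subtraction. Ptn_DEL minus Ptn_Delta became 0.23 ± 0.68 for Sycp3, 0.08 ± 0.29 for Mael and 0.14 ± 0.66 for Sycp1 (SE), and the 95% interval for Mael narrowed to -0.64 to 0.81. Both slide 1 spots were left out in EGFP and in Ptn_Delta for Sycp3 and Mael, and in Ptn_DEL for Sycp1. Those corrected group levels thus come from slide 2 alone, where Ptn_DEL minus Ptn_Delta was already 0.37, 0.13 and 0.05. The Ptn_VP64 and Ptn_DEL levels of Sycp3 and Mael include slide 1 arrays. With the shift subtracted, the left-out Sycp3 spots of Ptn_Delta arrays 1 and 2 stood at 3.36 and 0.73. Mael then averaged 2.91 ± 0.03 in EGFP (SD, n = 2), 2.98 ± 0.17 in Ptn_VP64 (SD, n = 2), 2.96 ± 0.29 in Ptn_DEL (SD, n = 4) and 2.87 ± 0.30 in Ptn_Delta (SD, n = 2). Sycp3 averaged 3.50 ± 0.29 (SD, n = 2), 2.62 ± 0.69 (SD, n = 3), 2.84 ± 1.00 (SD, n = 4) and 2.62 ± 0.87 (SD, n = 2) in the same order. The Mael groups thus had nearly the same mean, while the 2 EGFP arrays of Sycp3 (3.29 and 3.70) stood above both Ptn_Delta arrays (2.00 and 3.23) and overlapped Ptn_VP64 and Ptn_DEL. Of all genes, 5.2% stood lower in Ptn_Delta than in EGFP without overlap on corrected levels. No germline gene was called on corrected levels, beside 0.018% of 11136 genes in Ptn_VP64 against EGFP, 0.00898% in Ptn_VP64 against each other TALE group and 0% in the remaining 3 comparisons.

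On corrected levels the 3 smallest p-values of germline genes against EGFP, for Dazl, Mov10l1 and Ddx4, were all in Ptn_VP64, where 8.2% of all genes had an unadjusted p under 0.05. Dazl stood 0.49 ± 0.25 above EGFP (95% interval -0.10 to 1.08, unadjusted p = 0.0902, adjusted p = 0.727) and Mov10l1 0.51 ± 0.27 (interval -0.15 to 1.16, adjusted p = 0.762). Ddx4 stood 0.56 ± 0.39 above EGFP (interval -0.41 to 1.53, adjusted p = 0.886). Its 2 corrected Ptn_VP64 arrays, at 2.26 and 2.27, lay above all 3 EGFP arrays (1.31 to 1.99), where 13.4% of all genes stood above EGFP without overlap. They also lay above the 3 Ptn_Delta and 4 Ptn_DEL arrays, where 11.6% and 9.08% of all genes did. The left-out Ddx4 spots of Ptn_VP64, on array 2 in a patch and on array 4 marked, stood at 2.08 and 1.86 with the shift subtracted. That of array 4 lay within the EGFP range, and both lay below the highest Ptn_Delta (2.16) and Ptn_DEL (2.09) arrays. The separation thus held only with these spots left out. Corrected Dazl ranged from -0.50 to -0.02 on 3 EGFP arrays and from -0.14 to 0.67 on 4 Ptn_VP64 arrays, which overlap. Corrected Mov10l1 ranged from -2.27 to -1.68 on 4 EGFP arrays and from -1.80 to -1.07 on 3 Ptn_VP64 arrays, which overlap as well. With the arrays unaveraged, Mov10l1 reached 0.62 ± 0.22 (unadjusted p = 0.0156, adjusted p = 0.168) where 16.4% of all genes had an unadjusted p under 0.05. In the same fit Taf7l in Ptn_DEL stood 0.83 ± 0.33 above EGFP (unadjusted p = 0.0275, adjusted p = 0.567) where 7.95% of all genes did. Corrected Taf7l ranged from 0.21 to 1.82 on 3 Ptn_DEL arrays and from -0.31 to 0.65 on 4 EGFP arrays.

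**Figure D4:**
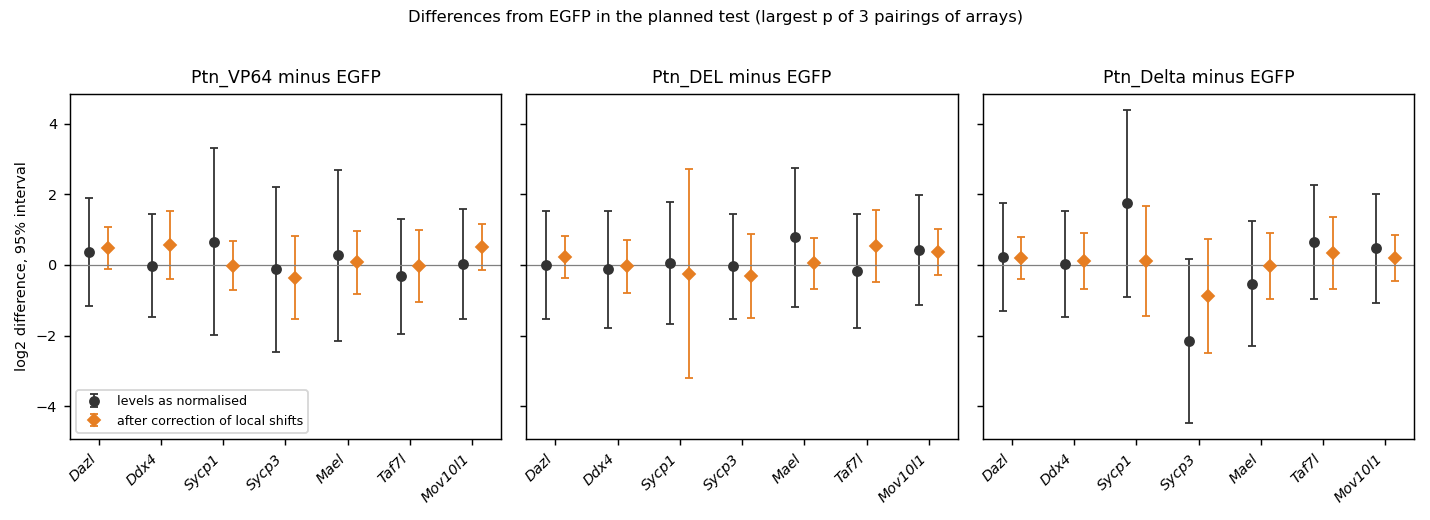
Differences from EGFP (y axis, log2, with 95% intervals) of the 7 germline genes tested (x axis) for each TALE construct, from levels as normalised (circles) and after correction of local shifts (diamonds). All intervals include 0. The Sycp3 difference in Ptn_Delta moves from -2.15 to -0.88, the latter from slide 2 arrays alone.

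The wider germline lists gave no calls either in the 3 comparisons with EGFP. Of the 12 piRNA and nuage genes tested, 1, 0 and 1 had an unadjusted p under 0.05 in Ptn_VP64, Ptn_DEL and Ptn_Delta: Rnf17 at -1.99 ± 0.80 in Ptn_VP64 and Tdrd12 at 2.73 ± 0.93 in Ptn_Delta (SE). On corrected unaveraged levels these were -1.30 ± 0.57 and 0.62 ± 0.46 (adjusted p = 0.291 and 0.763). Of the 21 meiosis genes, 0, 0 and 1 did, Tex15 at 1.5 ± 0.62 in Ptn_Delta. Of the 12 further germ cell genes, 1, 0 and 1 did, Wfdc15a in Ptn_VP64, at -2.05 ± 0.73, and Cyct, a testis cytochrome c, at -3.44 ± 1.40 in Ptn_Delta. On the corrected levels Tex15 stood at 0.79 ± 0.27 and Cyct at -0.75 ± 0.23 (adjusted p = 0.406 and 0.368). Medians for the piRNA list were 0.05, 0.04 and -0.14 and for the meiosis list 0.02, 0.18 and 0.44, beside 0.07, 0.18 and 0.18 for all genes. Wfdc15a was not well above background on any Ptn_VP64 array and on 1 EGFP array; on corrected unaveraged levels, where technical repeats count as replicates, its adjusted p was 0.049.

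Of the primordial germ cell list, Lin28a, an RNA-binding protein of primordial germ cells and ES cells, stood 2.58 ± 1.05 above EGFP in Ptn_DEL. In Ptn_Delta it stood 3.58 ± 1.05 above EGFP, and no other of the 11 primordial germ cell genes had an unadjusted p under 0.05. None of the 3 TET enzymes did. Of 24 repressors, 1, 2 and 2 did: Pcgf6, which names the variant Polycomb complex, at -4.60 ± 0.78 in Ptn_VP64 (adjusted p = 0.678), the H3K9 methyltransferase Ehmt2 at 3.51 ± 1.35 and the corepressor Trim28 at -2.41 ± 1.05 in Ptn_DEL, and Yaf2 at 2.75 ± 0.95 and Ehmt2 at 3.54 ± 1.35 in Ptn_Delta. The adjusted p of each was at least 0.678. Lin28a and Ehmt2 rested on 2 unmarked EGFP arrays each, and Lin28a in Ptn_Delta on 2 arrays as well; too few spots remained for a corrected difference of either. Corrected and unaveraged, Yaf2 stood at 0.89 ± 0.38 and Trim28 at -1.61 ± 0.78 (adjusted p = 0.572 and 0.656).

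The Pcgf6 difference rested on 2 spots. Pcgf6 measured -1.77 and 0.36 on Ptn_VP64 arrays 3 and 4, where the local shift was -4.61 and -1.24, while its marked spots on arrays 1 and 2 gave 3.81 and 3.06. The unmarked EGFP arrays 1, 3 and 4 gave 4.87, 4.06 and 3.35. With those marked or in patches left out, 0 Ptn_VP64 spots remained for a corrected difference.

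The arrays differed in overall quality and in markers of other states. The 75th percentile of signal ran from 209 to 1253, 27.1 to 43.8% of spots were well above background, and 0.641 to 35.6% lay in patches. A marked spot added nothing to the sums that follow, so arrays summed different numbers of genes and the ranges do not compare groups. The summed level of the 10 ES cell markers, relative to the 75th percentile and without marked spots, ran from 216 to 485 in EGFP, 183 to 443 in Ptn_VP64, 364 to 708 in Ptn_DEL and 314 to 902 in Ptn_Delta. That of the 8 fibroblast markers ran from 0.898 to 3.40, 2.03 to 7.09, 1.21 to 3.30 and 1.69 to 6.80, with Postn above background on 0 arrays, Twist2 and Lum on 1 and Dcn on 2. Col1a1 and Col1a2, collagen genes of that list, stood 3.37 ± 1.06 and 2.31 ± 0.90 above EGFP in Ptn_VP64 (SE, adjusted p = 1 each). The 8 markers of the 2-cell-like state, a rare ES cell state in which early embryonic genes are on, summed to 8.69 to 27.1, 1.22 to 37.0, 3.48 to 48.1 and 27.9 to 353. Of that list Tdpoz4 stood 2.33 ± 0.78 above EGFP in Ptn_VP64 (SE, adjusted p = 1) and 2.26 ± 0.52 on corrected unaveraged levels (adjusted p = 0.0316). Tdpoz4 was well above background on 6 of 16 arrays, and its EGFP mean was -3.70. Of the 8 markers in Ptn_VP64, 5 stood above EGFP and 3 below, with a median of 0.32. The part of these marker lists in the levels of the germline genes was not tested. In sorted bulk cells a few cells with much transcript and many with little cannot be told apart.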

How the data were processed

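Each array was read from the Feature Extraction table that the authors deposited for it. Its processed signal is an intensity, extracted from a 1-colour array with Agilent Feature Extraction 11.5.1.1, per the file headers. A table of log2 values that the authors deposited for the series shares 1 distribution in all 16 columns (each median 6.30); it served as an alternative, and its centring beyond that is unknown. The array's coordinates are on another build than the GRCm38.p6 gene table, per the file headers, so probes have no positions here; 27656 of 55681 probes had 1 symbol.

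Levels are log2 processed signal minus the array's log2 75th percentile over 59305 non-control spots. Spots marked as outliers were left out. Probes well above background on at least 4 arrays were kept (12777 genes), the probe with the highest mean standing for a gene. limma 3.58.1 (lmFit, eBayes, 2-sided, R 4.3.3) was run over all 4 groups for the 3 pairings of arrays (1+2 and 3+4 with slide as a term), the largest p kept and adjusted by Benjamini-Hochberg. The patch correction used 17906 spots with a median level of at least -1, left out spots shifted by over 1 log2 unit from the array's median and kept genes with at least 2 arrays in each group (11180). The probe standing for a gene was chosen anew on corrected levels, so it can differ where a gene has several probes. The procedure was tested on simulated data. The labels do not pair arrays by number.

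All 10 germline genes were named in every comparison. From each further list, up to 3 genes with the smallest p against EGFP could be named, and 3 by highest mean level; those under an unadjusted p of 0.05 against EGFP are given. The genes, lists and rules were chosen with earlier results of these data known. The number of arrays limits the precision. Alternatives were other normalizations, filters, probe choices and fits, and each array left out in turn.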

Additional observations from a re-analysis of the deposited data

Results flagged for a closer look

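Of the 30 sets of 4 unmarked arrays that 1 gene and 1 group gave, 1 held an array far from the others by Dixon's test. Dazl on Ptn_VP64 array 4 measured 0.73, above the other 3 arrays at 0.13 to 0.22; the gap was 0.847 of the whole range. The local shift there was 0.05 log2 units, and the array lies on slide 2. Chance alone marks about 1 set in 20.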

How the results depend on the processing

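The count of germline genes called was 0 of 7 in each of the 6 comparisons. It stayed 0 under all 15 other settings and with each of the 16 arrays left out in turn (138 recomputed counts). Leaving out an array called 0 of all genes as well, so those counts say nothing about germline genes in particular. Settings for the choice of probe left the levels of these genes, with 1 probe each, unchanged. The smallest adjusted p of a germline gene by limma was 0.0622, for Sycp3 in Ptn_DEL against Ptn_Delta on slide 1 alone. The number detected on at least 4 arrays was 7 and remained 7 with a minimum of 8 arrays and, an alternative added after seeing the data, counting unmarked spots outside patches only. Over all genes the planned test called 0, while the unaveraged fit on corrected levels called 365 for Ptn_VP64 against EGFP, 79 against Ptn_Delta and 94 against Ptn_DEL, and slide 1 alone called 116 for Ptn_Delta against EGFP and 194 for Ptn_DEL against Ptn_Delta. Signs were unstable: 31 of 42 differences of single germline genes turned sign under at least 1 alternative, in 149 of 966 recomputed values. The filters and probe choices among the alternatives left the levels of these genes unchanged, so 149 of 966 understates how unstable the signs were. Against EGFP, those that kept their sign throughout were Dazl in Ptn_VP64 (0.06 to 1.24), Mael in Ptn_DEL (0.05 to 2.07) and several in Ptn_Delta. The latter were Dazl (0.04 to 0.97), Sycp3 (-3.65 to -0.65), Taf7l (0.01 to 0.88) and Mov10l1 (0.02 to 0.73). The replicate number was not used for pairing. As a check, the departures of each array from its group's gene means, not the levels themselves, were correlated between arrays of different groups. Same-numbered arrays gave -0.07 to 0.47 over 24 pairs, 15 of them above 0.1. For 14 of 16 arrays the mean correlation of departures was highest with arrays of their own number. Each number also held the same row of the same slide in every group, so number and array position cannot be told apart here. With the replicate block on unaveraged arrays, Sycp3 in Ptn_Delta against EGFP had an adjusted p of 0.394 by limma, and 0 germline genes were called.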
